A study of Mus musculus with 18 samples.

Results

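The genes described here are 9 products of club cells and other secretory cells of the airway lining: the secretoglobins Scgb1a1, Scgb3a1 and Scgb3a2, the BPI fold proteins Bpifa1 and Bpifb1, the mucins Muc5b and Muc1, the lectin Reg3g and the antibody transporter Pigr. They were chosen by name, and every array probe whose RefSeq accession belongs to one of them was taken. Of the 9 genes, 8 were matched to 9 of the 55681 probes on the array, with 1 probe each except for Pigr with 2, and no probe was matched to Scgb3a2 by its accession. The whole array held 20660 named genes.

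Lung RNA came from 18 male MutaTMMouse animals, about 12 weeks old, a strain that carries a bacterial lacZ reporter for mutation assays, which were gavaged once a day for 28 days. The vehicle group of 5 mice received olive oil, and the others received the 4PAH-Mix, a blend of 4 polycyclic aromatic hydrocarbons, in that oil. The low group (4 mice) received 12.5, the medium group (5 mice) 25 and the high group (4 mice) 50 mg of benzo(a)pyrene (BaP) equivalents per kg body weight and day. Lungs were taken 72 hours after the last gavage, and RNA was drawn from randomly placed pieces of frozen lung, so that a sample can hold more or less airway. Each mouse had an array of its own, with its RNA in the Cy5 channel and a common reference RNA pooled from mouse cell lines in the Cy3 channel. Values are log2 ratios of lung over reference, and a gene was called changed at an adjusted p of 0.05 or less with a fold of 1.5 or more. The 18 arrays lay on 3 slides with 8, 6 and 4 arrays, and each slide held all 4 groups. Within a slide the array's position followed the dose, so position and dose cannot be told apart. Cy5 signal stood well above background for 51.5% to 61.1% of an array's probes.

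Club cells are the main secretory cells of the mouse bronchioles. They release secretoglobins into the airway fluid, metabolise inhaled and circulating chemicals, and can divide to replace ciliated cells. Goblet and gland cells of the larger airways add gel-forming mucin, and the same lining makes BPI fold proteins and antimicrobial lectins that act on bacteria, and carries immunoglobulin A to the lumen through the polymeric immunoglobulin receptor encoded by Pigr.

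The genes lie apart in the genome, other than the Bpif pair. In GRCm38.p6 coordinates, Bpifa1 spans bases 154142880 to 154149217 of chromosome 2 and Bpifb1 bases 154190818 to 154220343 of the same chromosome. Scgb1a1 lies on chromosome 19 (9083642 to 9087956), Scgb3a1 on chromosome 11 (49663595 to 49665118), Muc5b on chromosome 7 (141839059 to 141873089), Muc1 on chromosome 3 (89229056 to 89233381), Reg3g on chromosome 6 (78466269 to 78468874) and Pigr on chromosome 1 (130826684 to 130852249).

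Promoter windows from RefSeq (GRCm38.p6), 250 bases before to 50 bases after a transcript start, were given for 6 of the 9 genes. The windows of the genes that varied together between mice, and of Pigr, the gene that was called changed, are shown 5′ to 3′ on the gene's strand. Muc5b also varied with those genes, but no window was given for it. For Bpifb1 the window of its first start is shown. Capitals mark the matches to 6 short motifs searched on both strands.
Bpifa1, chr2:154142630-154142929, + strand: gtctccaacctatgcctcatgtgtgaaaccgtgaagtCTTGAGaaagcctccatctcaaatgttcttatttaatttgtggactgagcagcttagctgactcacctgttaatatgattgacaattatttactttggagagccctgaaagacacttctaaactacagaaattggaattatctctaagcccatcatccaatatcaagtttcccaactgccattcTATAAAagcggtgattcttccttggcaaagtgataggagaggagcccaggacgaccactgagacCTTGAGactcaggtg
Reg3g, chr6:78468825-78469124, - strand: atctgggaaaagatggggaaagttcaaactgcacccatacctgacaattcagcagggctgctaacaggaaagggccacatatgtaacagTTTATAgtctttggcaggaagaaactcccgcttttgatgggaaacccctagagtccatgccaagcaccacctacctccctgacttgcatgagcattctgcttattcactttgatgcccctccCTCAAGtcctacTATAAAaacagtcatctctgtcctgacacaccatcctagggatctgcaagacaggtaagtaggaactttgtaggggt
Scgb3a1, chr11:49663345-49663644, + strand: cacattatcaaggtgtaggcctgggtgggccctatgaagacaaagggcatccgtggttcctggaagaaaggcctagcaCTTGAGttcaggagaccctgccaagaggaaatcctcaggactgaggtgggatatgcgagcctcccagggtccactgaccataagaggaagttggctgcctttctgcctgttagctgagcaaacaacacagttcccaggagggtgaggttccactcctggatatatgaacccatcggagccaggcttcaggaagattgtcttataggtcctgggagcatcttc
Bpifb1, chr2:154190568-154190867, + strand: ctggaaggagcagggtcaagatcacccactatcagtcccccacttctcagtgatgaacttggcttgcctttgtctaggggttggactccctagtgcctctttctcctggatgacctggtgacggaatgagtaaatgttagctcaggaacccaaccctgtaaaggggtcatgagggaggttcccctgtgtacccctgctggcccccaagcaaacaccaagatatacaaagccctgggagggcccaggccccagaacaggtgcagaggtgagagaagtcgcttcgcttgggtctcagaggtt
Pigr, chr1:130826434-130826733, + strand: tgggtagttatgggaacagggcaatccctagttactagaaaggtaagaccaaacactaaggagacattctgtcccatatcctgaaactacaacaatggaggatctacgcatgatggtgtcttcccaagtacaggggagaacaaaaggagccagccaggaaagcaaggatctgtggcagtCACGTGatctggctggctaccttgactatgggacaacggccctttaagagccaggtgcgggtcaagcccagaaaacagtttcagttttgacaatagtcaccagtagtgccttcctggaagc

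The Pigr window held 1 E-box, CACGTG, a site class bound by the clock and USF factors, and 7.15% of the 32851 promoter windows of the table hold it. The NKX2-1 motif was searched as CTCAAG, after a lung transcription factor that acts on club cell genes. It was found in 2 places in the Bpifa1 window and in 1 place each for Reg3g, Scgb3a1 and Muc1, against 15.9% of all windows. The TATA box, searched as TATAAA, was found in the windows of Bpifa1, Muc1 and Reg3g, against 13.6% of all windows. The Bpifb1 windows held none of the 6 motifs. The core that the aryl hydrocarbon receptor binds, GCGTG, was in none of the windows of the 6 genes, against 32.4% of all windows. The FOXA motif, searched as TGTTTAC, was in none of them either, against 3.65% of all windows. The interferon response motif, searched as GAAANNGAA, was also in none, against 8.56%. The motifs did not overlap one another in the windows shown, and these counts describe letters in a short window only.

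Scgb1a1, the gene of the club cell secretory protein, gave one of the strongest lung signals on the array, and no dose moved it past the test. Its log2 ratios were 8.02, 8.10, 7.20, 7.28 and 7.72 in the vehicle mice and 7.91, 7.80, 7.47 and 7.76 at the low dose. The medium group had 7.43, 7.66, 7.52, 7.22 and 7.27, and the high group had 7.46, 7.84, 7.17 and 8.01. All groups overlapped. Against vehicle, the low, medium and high groups differed by 0.07, -0.24 and -0.04 (SE 0.18, 0.17 and 0.18), with adjusted p of 0.964, 0.555 and 0.952 in limma, and the 95% interval at the high dose ran from -0.41 to 0.33. In whole lung, fewer club cells and less RNA in each cell cannot be told apart. The high-dose change was 0.38 (adjusted p = 0.375) when the ratios were scaled between arrays.

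The brightness of the Scgb1a1 probe was checked because a spot near the scanner's limit cannot show a rise. No spot of any probe was marked as saturated on any array. The probe had 10 spots on each array, whose Cy5 intensities differed by a coefficient of variation of 1.03% to 4.27%, and its mean Cy5 signal ranked between 1 and 4 among all probes of its array. Between mice its Cy5 intensity ranged from 472000 to 706000, and within a slide the highest was only 1.08, 1.11 and 1.07 times the lowest. Its Cy3 intensity, the reference RNA, ranged from 2540 to 7150, a wider relative range than that of the lung channel. Whether the lung signal was compressed at the top of the scale was not tested.

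**Figure D1:**
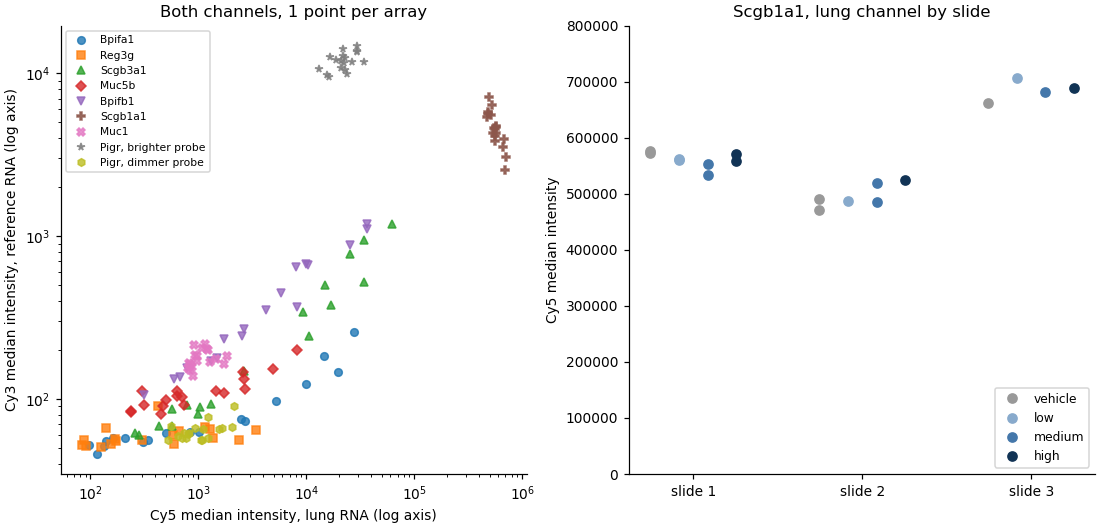
Left: Cy3 intensity (reference RNA) against Cy5 intensity (lung RNA) on log axes, 1 point per mouse for each of the 9 probes. Right: Scgb1a1 Cy5 intensity by slide, coloured by dose group. Scgb1a1 points sit at 472000 to 706000 in Cy5 and separate by slide, and the Cy3 values of Scgb3a1, Bpifa1 and Bpifb1 are higher where their Cy5 values are higher.

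Other club cell genes were read from a list. Of 24 such genes, 23 had a probe, 0 were called at the low or high dose, and 1 was called lower at the medium dose, counts too small to set against 0.16%, 0.934% and 1.51% of all genes called at those doses in rising order. The median change was -0.01 at the high dose beside 0.02 over all genes. Cbr2, a carbonyl reductase, had a change of -0.02 (SE 0.15), Cyp2f2, a club cell cytochrome P450, of -0.24 (SE 0.21), and Aldh1a1, a retinaldehyde dehydrogenase, of 0.23 (SE 0.24) at the high dose, with adjusted p of 0.969, 0.662 and 0.747. The gene called was Upk3a, a uroplakin found in a subset of club cells, which fell by 0.94 at the medium dose (adjusted p = 0.0225 in limma) and had a change of -0.55 (adjusted p = 0.255) at the high dose. Over the 18 mice, the 2 genes most like Scgb1a1 after removal of the group means were H2-Ab1 (r = 0.936), which encodes a chain of an antigen-presenting molecule, and Wfdc2 (r = 0.923), a secreted protein of the airway lining. Probes of Cbr2 and Cldn5 also had r above 0.9 with Scgb1a1. The reference channel of the Scgb1a1 probe had the wider relative range, and its part in these likenesses was not tested.

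Bpifa1 encodes SPLUNC1, a secreted protein of the upper airway lining that lowers surface tension and binds bacterial lipids. It was the gene with the widest spread between mice of one dose: the pooled SD within groups was 2.39 on the log2 scale, rank 1 of 16361 genes, whose median SD was 0.15. Its log2 ratios were 3.89, 3.56, 2.84, 2.18 and 5.77 in the vehicle mice and 6.50, 0.79, 0.46 and 4.49 at the low dose. The medium group had 4.89, 0.69, 2.07, 0.88 and 6.19, and the high group had 1.39, 5.53, 1.10 and 6.31. Each dosed group held mice on both sides of the vehicle range. Of the low, medium and high mice, 2, 3 and 2 lay below all vehicle mice, and 1 in each group lay above them all. The SD was 1.36 in vehicle mice and 2.93, 2.47 and 2.72 in the low, medium and high groups. Whether the spread differed between groups was not tested. The Cy5 intensity spanned 97 to 27500, a 284-fold range. Against vehicle the change was -0.59, -0.70 and -0.07 (SE 1.31, 1.23 and 1.31), with adjusted p of 0.955, 0.875 and 0.99. The 95% interval at the high dose, from -2.79 to 2.65, leaves room for a change of several-fold in either direction. The lung signal was well above background in 17 of the 18 mice, and the reference signal in 6 of 18, so that in the other mice the ratio and its spread were set against a reference signal near background.

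Bpifb1, whose product LPLUNC1 is secreted by the same lining, gave 4.07, 3.56, 4.13, 2.80 and 4.69 in the vehicle mice and 4.26, 3.03, 1.34 and 3.87 at the low dose. The medium dose gave 3.60, 1.92, 3.28, 2.15 and 4.34, and the high dose 2.66, 3.85, 2.26 and 4.49. All 3 dose means were below the vehicle mean, by -0.73, -0.79 and -0.54 (SE 0.56, 0.53 and 0.56), yet the groups overlapped and no difference passed the test (adjusted p of 0.807, 0.535 and 0.735). Its Cy5 intensity spanned 313 to 36400, a 116-fold range.

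Scgb3a1, a small secretoglobin of the larger airways, had log2 ratios of 3.54, 5.11, 3.06, 3.58 and 5.04 in the vehicle mice and 5.43, 2.74, 1.74 and 4.85 at the low dose. Medium mice had 5.01, 1.79, 4.07, 2.36 and 5.29, and high mice had 3.19, 5.32, 2.56 and 5.39. The groups overlapped throughout, and the changes were -0.38, -0.36 and 0.05 (SE 0.79, 0.74 and 0.79) with adjusted p of 0.951, 0.898 and 0.988. Its Cy5 intensity ran from 256 to 62300, 243-fold, and its SD within groups was 1.44, rank 15 of the 16361 genes.

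Muc5b, the gel-forming mucin that carries mucociliary clearance, had 2.20, 2.87, 2.76, 2.11 and 3.88 in the vehicle mice, and 4.15, 2.11, 1.52 and 3.25 at the low dose. Medium mice had 3.55, 1.09, 2.30, 1.18 and 4.75, and high mice 2.14, 4.05, 1.21 and 4.18. The order of the mice was that of Bpifa1 in each dosed group, and differed from it in vehicle mice. Changes of 0.00, -0.19 and 0.13 (SE 0.70, 0.66 and 0.70) did not pass the test (adjusted p of 0.999, 0.949 and 0.962), and the SD within groups was 1.27.

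Reg3g, a lectin that kills Gram-positive bacteria, had 2.10, 1.97, 4.11, 1.07 and 4.67 in the vehicle mice and 4.39, 0.72, 0.19 and 2.50 at the low dose. The medium dose gave 3.14, 0.15, 1.11, 0.15 and 5.05, and the high dose 1.14, 2.92, 0.66 and 3.37. Its lung signal was well above background in 15 of 18 mice, and its reference signal in 1 of 18. The lowest ratios of the low and medium groups thus lay close to the floor of the lung signal, and nearly every ratio was set against a reference signal near background. The changes were -0.83, -0.87 and -0.76 (SE 0.97, 0.91 and 0.97), with adjusted p of 0.898, 0.753 and 0.797. The SD within groups, 1.77, had rank 7.

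Muc1, a mucin that stays in the cell membrane, showed none of this spread. Its values were 2.56, 2.26, 2.24, 2.25 and 2.20 in the vehicle mice, 2.20, 2.35, 2.41 and 2.61 at the low dose, 2.51, 2.50, 2.25, 2.25 and 2.37 in medium mice, and 2.30, 2.11, 2.32 and 2.50 in high mice. Its SD within groups was 0.15, and the changes were 0.09, 0.07 and 0.00, with a 95% interval of -0.20 to 0.21 at the high dose, the narrowest of the 8 genes.

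**Figure D2:**
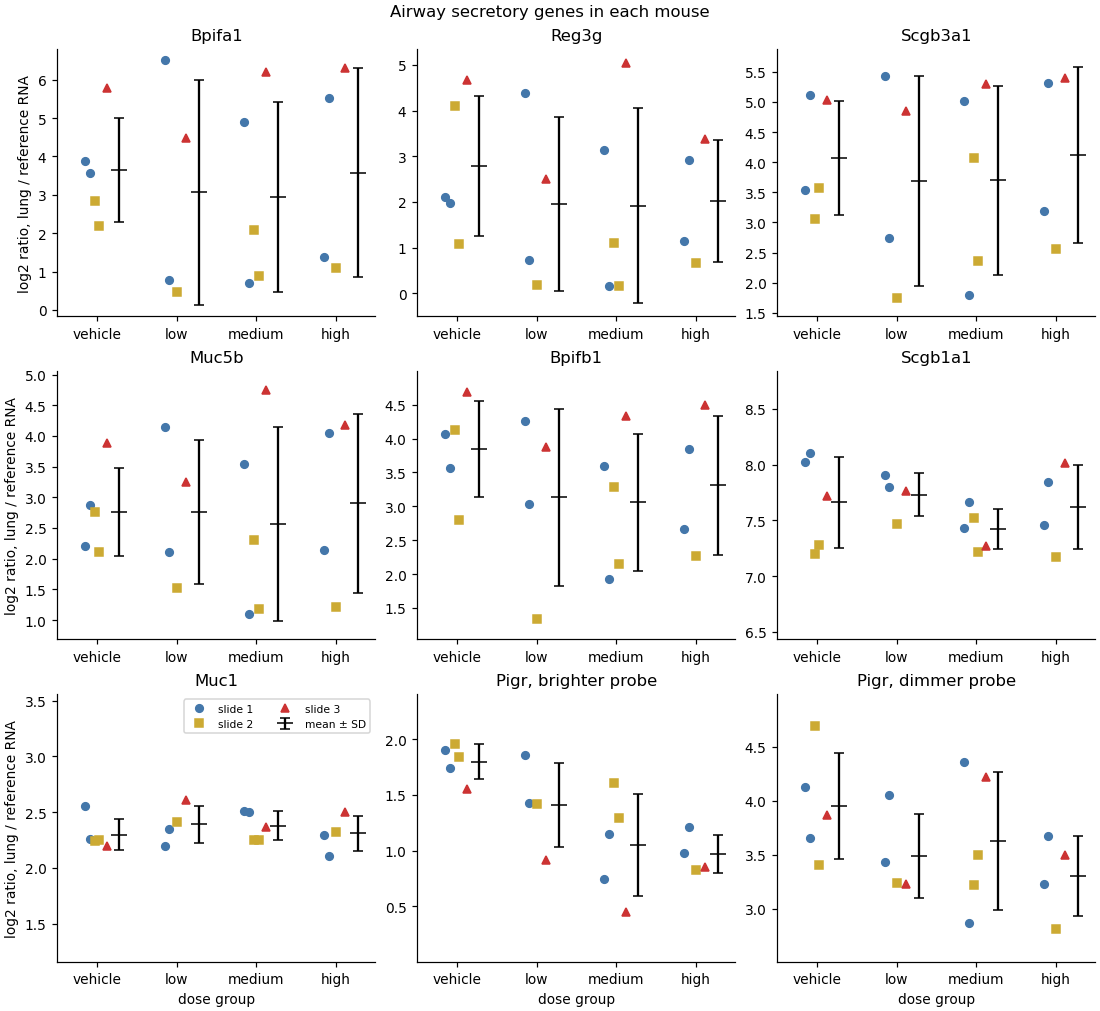
Log2 ratio of lung over reference RNA (vertical axis, on a scale of its own in each panel) for each mouse by dose group, with the slide as marker, and the group mean ± SD in black. Bpifa1, Reg3g, Scgb3a1, Muc5b and Bpifb1 spread widely within each group with slide 3 among the higher values, whereas the brighter Pigr probe steps down from 1.80 in vehicle to 0.97 at the high dose.

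The wide spread was shared. With group means removed, all 10 pairs among Bpifa1, Bpifb1, Muc5b, Reg3g and Scgb3a1 were correlated over the 18 mice, with r from 0.79 to 0.95 and rho from 0.81 to 0.94. The tightest pair was Bpifa1 with Muc5b (r = 0.95, permutation p = 2e-05; rho = 0.94, permutation p = 1e-05, the smallest that 100000 draws can give). After Benjamini-Hochberg adjustment over the 36 relations tested, the highest p of the 10 was 0.00515 for r and 0.00385 for rho. Mice were permuted within dose groups but not within slides, so these p-values do not set aside a shift shared by a slide. Without the 2 mice farthest from the median, r was 0.75 to 0.95. Within slide 1 (8 mice) r was 0.83 to 0.97, and within slide 2 (6 mice) 0.21 to 0.94, the lowest being Scgb3a1 with Reg3g. Slide 3 held 4 mice, too few for a value. The grouping of these 5 genes was made after the correlations were seen.

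Scgb1a1, Muc1 and Pigr stood outside that group. Of the 18 other pairs of genes, 0 passed the adjusted threshold for r and 0 for rho (r from -0.52 to 0.48, lowest adjusted p = 0.0782). Scgb1a1 with Bpifa1 had r = 0.44 (permutation p = 0.0617, adjusted p = 0.117), rho = 0.42 (permutation p = 0.0823), and 0.22 and 0.26 within slides 1 and 2. Muc1 with the brighter Pigr probe had r = -0.52 (permutation p = 0.0391) and rho = -0.60 (permutation p = 0.0209).

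**Figure D3:**
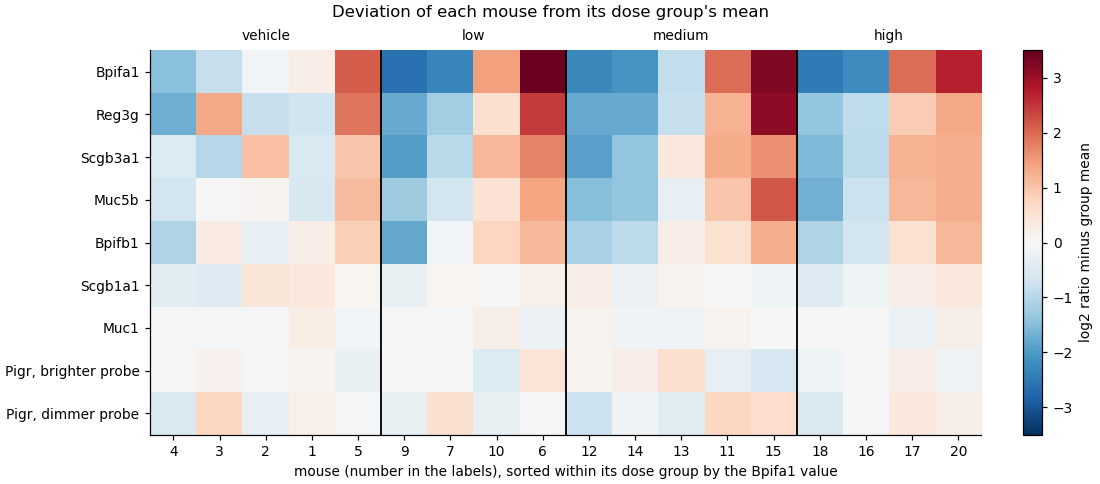
Deviation of each mouse's log2 ratio from the mean of its dose group (colour), for 9 probes (rows) in 18 mice (columns, sorted within each dose group by Bpifa1). The rows of Bpifa1, Reg3g, Scgb3a1, Muc5b and Bpifb1 run from blue to red in the same order of mice in each dosed group. In vehicle mice the order is less shared: mouse 3 lies above the group mean for Reg3g and Bpifb1 and below it for Bpifa1. Scgb1a1 and Muc1 stay pale.

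Several measured quantities moved with that shared spread. The 4 mice of slide 3, 1 from each dose group, had a mean Bpifa1 ratio of 5.69, against 3.41 for slide 1 and 1.59 for slide 2. In those 4 mice Scgb3a1 averaged 5.14 and Reg3g 3.90, against 2.89 and 1.21 on slide 2. Arrays of slide 3 were also brighter, with median Cy5 intensities from 132 to 142 against 110 to 131 on the others. Slide 1, however, held both low and high mice, with Bpifa1 ratios from 0.69 to 6.50. The mean of 15 ciliated cell markers, genes of the other main cell of the airway lining, had r of 0.55 to 0.67 with the 5 genes over all mice, of which the value for Bpifb1 was the highest (r = 0.67, permutation p = 0.00563, adjusted p = 0.0184; rho = 0.59, permutation p = 0.0199). This was not particular to the 5 genes: Scgb1a1 passed the adjusted threshold with these markers (r = 0.58, permutation p = 0.0201, adjusted p = 0.0483; rho = 0.50, permutation p = 0.0517), as did Scgb3a1, Bpifa1, Bpifb1 and Muc5b, whereas Reg3g did not (r = 0.55, permutation p = 0.0356, adjusted p = 0.0782). For rho, Muc5b alone passed (adjusted p = 0.0497). Within slide 1 the values of the 5 genes were 0.15 to 0.43, and within slide 2 they were -0.21 to 0.68. For Scgb1a1, r with these markers was 0.17 within slide 1 and -0.04 within slide 2. The reference channel moved too: the Cy3 intensity of the Bpifa1 probe was 52 on the array with its lowest Cy5 value and 257 on the array with its highest. The part of the slide, the share of airway in the piece of lung and the signal in the other channel in this spread was not tested.

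Other genes followed the same mice. Of 55594 other probes compared, 11 had r above 0.9 with Bpifa1, and 4 of these belonged to Bpifb1, Muc5b, Reg3g and Scgb3a1. Among the rest were Fam83e (r = 0.95), the trefoil factor Tff2 (r = 0.90), a mucin-associated secreted peptide, and Gp2 (r = 0.90), a receptor for bacteria on epithelial cells. The lung signal of Gp2 was well above background in 6 of 18 mice (median Cy5 89, rho = 0.81), so most of its values lay near the floor. The 2 most alike genes were taken among those whose lung signal was well above background in all 18 mice, which leaves out Bpifa1 and Reg3g as candidates. By that rule Scgb3a1 was matched with Muc5b (r = 0.926) and Ppip5k1 (r = 0.901), Bpifb1 with Fam83e (r = 0.933) and Sult1d1 (r = 0.91), Muc5b with Fam83e (r = 0.945) and Scgb3a1 (r = 0.926), and Reg3g with Muc5b (r = 0.933) and lactoferrin, Ltf (r = 0.902). Muc1 was most like Camp (r = 0.774) and Ppp1r14a (r = 0.761). The heart muscle genes Tnni3 and Myl3, singled out after their values were seen, also had r = 0.87 each with Bpifa1. All of these are descriptions over 18 mice that share the same arrays.

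Related genes outside the 9 were read the same way, and with 0.16% to 1.51% of all genes called at a dose, lists of this size would hold few calls or none. Of 12 other secretoglobins with a probe, 3 were well above background in all mice and 0 were called at any dose, and Scgb1c1, the brightest, had a change of -0.32 (SE 0.20, adjusted p = 0.486) at the high dose. Of 13 other BPI fold family genes, 0 were called; Bpifc had a change of -0.34 (SE 0.11, adjusted p = 0.0979), the lipopolysaccharide-binding protein Lbp of 0.11 and Bpifb5 of -0.30. Of 16 other mucin and goblet cell genes, 0 were called, and the membrane mucins Muc20 and Muc4 had changes of -0.20 and -0.10. Muc5ac, the mucin of goblet cells, was near the lower end of the signal (median Cy5 134) and had a change of 0.11 (SE 0.16). Of 6 other REG lectins, 0 were above background in all mice. Of 17 other secreted defence genes, 0 were called, and lysozyme Lyz1 had a change of 0.08 (SE 0.13, adjusted p = 0.87) at the high dose. Nearest to the threshold there were Spp1 and Chia1. Spp1 had a change of -0.56 (SE 0.16, adjusted p = 0.0497 in limma), under the fold limit, and Chia1 of 0.79 (SE 0.23, adjusted p = 0.0549).

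Pigr was the single gene of the set that passed the test, and its brighter probe did so. The log2 ratios were 1.90, 1.74, 1.96, 1.84 and 1.55 in the vehicle mice and 1.86, 1.43, 1.42 and 0.92 at the low dose. Medium mice had 0.75, 1.15, 1.61, 1.29 and 0.45, and high mice 0.98, 1.21, 0.83 and 0.85. All 4 high-dose mice lay below all 5 vehicle mice, 4 of 5 medium-dose mice did so, and the low group overlapped. Against vehicle the change was -0.39 at the low dose, which did not pass the test (SE 0.19, adjusted p = 0.617 in limma). The ratio fell by 0.75 at the medium dose (SE 0.18, adjusted p = 0.0191) and by 0.83, 1.78-fold, at the high dose (SE 0.19, 95% interval -1.22 to -0.45, adjusted p = 0.0114). The slope over dose was -0.21 per 12.5 mg (adjusted p = 0.0124), and the difference between high and low dose, -0.44 (SE 0.20), did not pass (adjusted p = 0.708). The two-sided exact permutation test gave p = 0.0159 at the high dose, the smallest that 4 against 5 mice allow, and 0.214 after adjustment over 27 such tests.

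Read against the whole array, 1 of the 8 genes was called at the medium dose, where 0.934% of all genes were called, and 1 of 8 at the high dose, where 1.51% were. At the low dose 0 of 8 were called against 0.16% of all genes, and between the high and the low dose 0 of 8 against 0.0823%. In the test of slope 1 of 8 was called against 5.07%. At an unadjusted p under 0.05, 1 of the 8 genes, Pigr, was found in each of these comparisons, beside 9.26%, 19.7%, 20.0%, 7.12% and 20.3% of all genes for the low, medium, high, high against low and slope tests, so that this count is near the share over all genes.

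**Figure D4:**
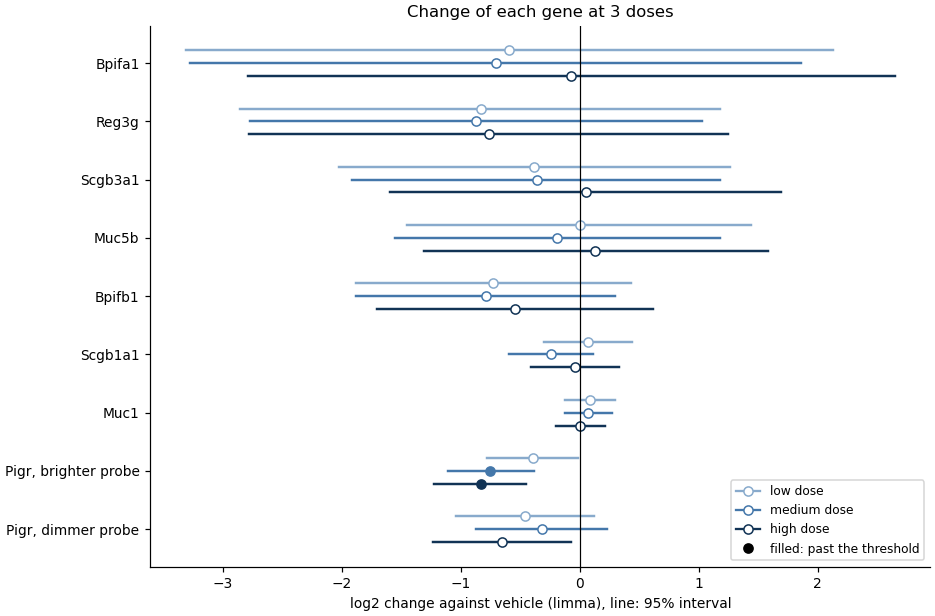
Log2 change against vehicle (horizontal axis) at the low, medium and high dose for the 9 probes, with 95% intervals from limma; filled points passed the threshold of an adjusted p of 0.05 and a fold of 1.5. The brighter Pigr probe alone has filled points, at -0.75 and -0.83, and the intervals of Bpifa1 and Reg3g span several log2 units.

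The second Pigr probe did not pass. Its values were 4.13, 3.66, 4.69, 3.41 and 3.87 in the vehicle mice, 3.43, 4.05, 3.24 and 3.23 at the low dose, 4.36, 2.87, 3.22, 3.50 and 4.22 in medium mice, and 3.23, 3.67, 2.81 and 3.50 in high mice. The changes were -0.46, -0.32 and -0.65 (adjusted p of 0.73, 0.649 and 0.243), the same direction at each dose, and the groups overlapped at every dose. This probe was dimmer, with Cy5 intensities of 528 to 2120 against 13200 to 34400, and in Cy3 it was well above background in 2 of 18 mice. With group means removed, the pair of probes had r = -0.23 and rho = -0.10 over the 18 mice, so mice that were high by one probe were not high by the other.

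The brighter Pigr probe also varied with probes of unrelated genes. Its most alike genes were Gcm1 (r = 0.993), a placental transcription factor, and Rhox8 (r = 0.985), a homeobox gene of reproductive tissue, and the probe of the axon guidance receptor Dcc had r = 0.98. In all, 84 other probes had r above 0.9 with it, none of them from the 9 genes, and 30 of these carried a gene symbol. All 84 were lower at the high dose, with a median change of -0.76, and 55 of them were called lower there and 43 at the medium dose. Over the whole array, 670 of 55681 probes were called at the high dose and 404 at the medium dose, in either direction. Gcm1 fell by 0.85 at the high dose (SE 0.19, adjusted p = 0.0137 in limma). These probes were bright in the reference channel as well, with a median Cy3 intensity of 7080 beside 11500 in Cy5. The dimmer Pigr probe had 0 probes at r above 0.9. Whether the brighter probe measured Pigr mRNA alone was not tested.

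The call also varied with the scaling of the arrays. When arrays were centred on their medians instead of by loess, the high-dose change was -0.55 (adjusted p = 0.283) and the medium-dose change -0.49 (adjusted p = 0.524), so that Pigr was no longer called, while that scaling moved the median of all genes to 0.10 at the high dose. With the scanner software's own ratios the medium-dose change was -0.77 (adjusted p = 0.0536), and without medium mouse 11 the medium-dose change was -0.67 (adjusted p = 0.0592). Within slides 1, 2 and 3 the high-dose change was -0.73, -1.07 and -0.70.

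Genes linked to immunoglobulin A and to the cells that make antibody were read from a list of 10, 9 of them with a probe. The list was chosen with earlier results of these data known. Of these, 2 were called lower in medium mice and 1 in high mice, beside 0.934% and 1.51% of all genes called at those doses in either direction. The list as a whole did not fall: 5 of the 9 genes were above 0 at each of these doses, with median changes of 0.02 and 0.04. Jchain, the joining chain that lets polymeric immunoglobulin A bind the receptor, averaged -1.98 ± 0.31 (SD, n = 5) in vehicle mice against -2.67 ± 0.18 (SD, n = 4) in high-dose mice. It fell by 0.66 at the medium (adjusted p = 0.00679) and 0.69 at the high dose (adjusted p = 0.00635 in limma). Xbp1, the transcription factor of secreting cells, fell by 0.63 at the medium dose (adjusted p = 0.000612) and had a change of -0.58 (adjusted p = 0.00144) at the high dose, under the fold limit. Mzb1, a plasma cell chaperone, had a change of -0.04 (SE 0.11). With the brighter Pigr probe, Jchain had r = 0.21 and Xbp1 r = -0.36 over the mice within groups.

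Genes of the pathways that induce Pigr and Reg3g, activators and inhibitors alike, were not called at any single dose (0 of 21). Over all genes, 0.16% to 1.51% were called at a dose. In the test of slope 5.07% of all genes were called, among them Nfkb1 and Stat3 as lower. Their slopes were -0.09 per 12.5 mg each (adjusted p of 0.0132 and 0.0374 in limma). Both genes have 2 probes, and the values are those of the brighter one. Of the 21 genes, 12 had a slope above 0, and the median slope was 0.01 per 12.5 mg. Among 18 regulators of secretory cells, 1 was called lower, at the medium as well as the high dose: Notch1, which sets the balance between secretory and ciliated fates, fell by 0.61 (adjusted p = 0.0326) and 0.69 (adjusted p = 0.0195). That rests on its brighter probe, which had r = 0.71 with the brighter Pigr probe, whereas its other probe had changes of -0.01 and -0.10 (adjusted p of 0.971 and 0.671). Hey1, a Notch target, had a change of 0.49 (SE 0.11, adjusted p = 0.0125) at the medium dose, under the fold limit and opposite in sign to Notch1, and of 0.22 (SE 0.11, adjusted p = 0.373) at the high dose. Foxa2, an activator of club cell genes, had a change of 0.21 (SE 0.10, adjusted p = 0.299) and Cebpd of -0.27 (SE 0.15, adjusted p = 0.41) at the high dose.

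Markers of neighbouring cells give the setting of these values. Over all genes, 0.16%, 0.934% and 1.51% were called at the low, medium and high dose, and 5.07% in the test of slope. Of 15 ciliated cell markers 0 were called at any dose, with a median change of -0.04 at the high dose. The mean of these markers ranged from -0.47 to 0.25 in vehicle mice and from -0.28 to 0.15 at the high dose. Of 10 alveolar type 2 markers 0 were called at any single dose, and 2, Abca3 and Slc34a2, were called lower in the test of slope (-0.09 per 12.5 mg each, adjusted p of 0.0299 and 0.0248). Their median change was -0.20 at the high dose, where 1 of 10 was above 0, and Sftpc, a surfactant protein, had a change of -0.17 (SE 0.19). Of 8 alveolar type 1 markers 1 was called lower at the medium and high dose, Cav1 (-0.68, adjusted p = 0.000101), a caveolar protein also made by endothelium, and the median was -0.25 with 0 of 8 above 0. Of 10 neutrophil markers 1 was called higher, Mmp8, a collagenase, by 0.98 (SE 0.23, adjusted p = 0.0157) at the high dose. Of 6 basal cell, 7 neuroendocrine and 8 thyroid and oesophagus markers 0 were called at any single dose, and 1 of the last 8 was well above background in all mice. The part of these cell types in the Pigr result was not tested.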

How the data were processed

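The authors hybridised lung RNA (Cy5) against Universal Mouse Reference RNA (Cy3) on Agilent arrays and deposited the scanner output of 18 arrays (Feature Extraction 11.0.1.1 per the file headers) with Cy5 and Cy3 median intensity per spot and a log10 ratio. A table of log2 ratios that the authors deposited beside them was used as an alternative, and it was close to the ratios below (r of 0.995 to 0.998 over probes on each array, with median values from -0.032 to -0.019). Its exact centring is not given in the sources used here.

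Here, log2 Cy5 over Cy3 ratios of median intensity were taken without background subtraction and normalized by loess within arrays. Spots marked as outliers (215 to 307 per array) and control spots were left out, and spots of a probe were averaged. limma 3.58.1 in R 4.3.3 (lmFit, eBayes) was fitted on all 18 arrays and 55681 probes, of which 86 lacked a value on some array, with Benjamini-Hochberg adjustment within a comparison. RefSeq accessions named 27235 probes. The brightest probe (highest mean signal) stood for a gene. Named genes were all 9 genes with all their probes, the genes of 16 lists of related genes and cell markers that were called or had the brightest signal, and the 2 genes most like each member. Members and lists were chosen with earlier results of these data known. Single genes and pairs were tested by permutation (Python 3.11.15, scipy 1.17.1). For pairs, and for genes with the ciliated markers, mice were permuted within dose groups but not within slides. The scripts were tested on simulated data. Alternatives were other background, ratio, centring, scaling, channel, slide, filter, probe, sample, fold limit and array weight settings, and each mouse left out. The planned normexp on mean signals was run on median signals, since the files used here were read by their median signals. Arrays have no read depth, so precision depends on how many there are. The labels name separate mice as replicates.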

Additional observations from a re-analysis of the deposited data

Results flagged for a closer look

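Of 36 dose groups of the 9 probes, 1 held a mouse far from the others: for Muc1, vehicle mouse 1 had a log2 ratio of 2.56, and its gap to the nearest other mouse (2.26) was 0.829 of the group's whole range. Chance alone marks about 1 in 20 groups.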

How the results depend on the processing

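Of the values for single probes, 1567 kept their side of the threshold or moved by less than the spread between mice, 15 moved by more and 6 became weaker, all 6 for the brighter Pigr probe, whose direction held throughout. Most values for single probes, called or not, kept their direction. When 1 mouse was left out 57 of 810 turned, under other settings 39 of 697, and within slides 14 of 81. Bpifa1 at the medium dose, for example, was -0.70 in the main fit and 0.42 within slide 3. That shift was under the spread between mice and did not count as a move. The 1567 therefore do not show stability for genes with a wide spread. Of the values that turned, 0 were for the brighter Pigr probe. The number of genes called at the medium dose, 1, was 0 with the scanner software's ratios (Pigr change -0.77, adjusted p = 0.0536), with median centring, when a gene's probes were averaged (-0.53, adjusted p = 0.0468, under the fold limit) and, when each mouse was left out in turn, ran from 0 to 1, the value 0 coming without medium mouse 11. The number called at the high dose, 1, and the number with a dose trend, 1, were each 0 with median centring (slope -0.14, adjusted p = 0.212), and leaving out single mice kept both at 1, with high-dose changes of -0.91 to -0.79 and adjusted p of 0.00423 to 0.041. Over the 14 alternatives fitted on all 18 mice, the high-dose Pigr change was -0.84 to -0.55 (adjusted p of 0.00229 to 0.283). The cause of these differences was not tested. The slide as a block, and, added after seeing the data, the ciliated markers as a covariate and the removal of slide 3, changed no count of calls. No paired analysis was possible because the mouse numbers in the labels are not shared between groups. With 4 or 5 mice in a group and SE up to 1.31, changes under several-fold in Bpifa1, Reg3g, Scgb3a1 and Muc5b were not detectable, and Reg3g was close to background in 3 mice.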
